A study of Mus musculus with 6 samples.

Results

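Retinoic acid, the active derivative of vitamin A, is made and removed within the cell and acts on transcription. Retinol travels in blood on the carrier RBP4 and enters some cells through the membrane receptor STRA6. Dehydrogenases such as ALDH1A1 oxidise retinaldehyde to retinoic acid, CYP26 enzymes such as CYP26B1 inactivate it, and the small cytosolic proteins CRABP1 and CRABP2 carry it, CRABP2 towards the nucleus. The nuclear receptors RARα, RARβ and RARγ, encoded by Rara, Rarb and Rarg, bind it as heterodimers with RXR at DNA elements made of repeated hexamers, and Rarb, Cyp26b1 and Crabp2 are themselves known targets. Retinoid signals are known for their roles in patterning of the limb skeleton and in the choice between bone, cartilage and fat in mesenchymal progenitors.

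The 9 genes described here, Crabp1, Crabp2, Rbp4, Stra6, Aldh1a1, Cyp26b1, Rara, Rarb and Rarg, were taken by name from the 55401 genes of the deposited table, and all 9 were found. They were selected on their FPKM and fold changes between these same knockout and WT libraries, so that their differences are given as a description, without a p-value. The libraries came from mesenchymal stromal cells flushed from the femoral marrow of C57/B6J mice and grown in serum-containing medium, a plastic-adherent culture that can also hold marrow macrophages. There were 3 libraries of Nlrp3 knockout cells (NLRP3-/-) and 3 of wild-type (WT) cells, and both groups had received 3 µg/mL lipopolysaccharide (LPS), a component of the outer membrane of Gram-negative bacteria, for 24 h. NLRP3 is the sensor of an inflammasome that activates caspase-1. Unstimulated cells were not analysed here, so that the values do not show how either genotype responded to LPS. Whether each library stands for its own mouse or culture is not stated, so the p-values given for other genes cover the spread between libraries alone, and that spread may be technical. Genotype and starting culture cannot be told apart.

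The libraries held 58.4 to 63.5 M estimated counts in the knockout group and 53.2 to 66.3 M in the WT group. Nlrp3 had 0.00 FPKM in all 3 knockout libraries, against 2.76, 1.68 and 1.86 FPKM in WT libraries 1, 2 and 3 (exact two-sided permutation p = 0.1, the smallest that 3 against 3 allow). Among 21 stromal markers the most abundant was Col1a1, the main collagen chain of bone and connective tissue. It stood at 1300.6 ± 75.4 FPKM in knockout and 1725.5 ± 86.5 FPKM in WT libraries (SD, n = 3 each). Some others were low, such as Lepr at 0.083 ± 0.015 FPKM in knockout and 0.007 ± 0.006 FPKM in WT libraries. Of 33 macrophage markers, 28 passed the expression filter given below. All 28 were higher in the knockout group (limma, adjusted p of 0.05 or less), against 10.4% of all genes tested. Aif1 and Trem2 reached 1 FPKM in the knockout libraries alone, so that they entered the test through the group where they were higher. Under the filter, Cd163, Clec7a and Ptprc lay higher in every knockout library, and Mrc1 and Cx3cr1 overlapped between the groups. The summed level over the 33 markers lay between 1853.5 and 2102.5 FPKM in knockout libraries and between 799.9 and 906.1 FPKM in WT libraries. None of the 33 was at 0 in all 6 libraries. The 12 adipocyte markers summed to between 7.57 and 8.57 FPKM in knockout and between 4.64 and 4.88 FPKM in WT libraries, and Adipoq, Lep, Plin1 and Cidec were at 0 in all 6. The 22 lymphoid, granulocyte, erythroid and endothelial markers summed to between 7.14 and 12.4 FPKM in knockout and between 10.7 and 11 FPKM in WT libraries.

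Promoter sequences are shown for the member with the largest difference, Crabp1, and for Rarb, whose receptor is known to regulate its own gene. They run from 250 bases before to 50 bases after a RefSeq transcript start, read 5′ to 3′ on the gene's strand, and come from RefSeq for GRCm38.p6. For Rarb this start lies within the gene coordinates given below. In the Crabp1 window, chr9:54764498-54764797 on the plus strand, capitals mark GGGCGG or its complement, a GC box. In the Rarb window, chr14:16575427-16575726 on the minus strand, capitals mark hexamers bound by retinoid receptors, written AGGTCA in one form, AGTTCA in another, and also GGGTCA or, last, GGTTCA.
Crabp1: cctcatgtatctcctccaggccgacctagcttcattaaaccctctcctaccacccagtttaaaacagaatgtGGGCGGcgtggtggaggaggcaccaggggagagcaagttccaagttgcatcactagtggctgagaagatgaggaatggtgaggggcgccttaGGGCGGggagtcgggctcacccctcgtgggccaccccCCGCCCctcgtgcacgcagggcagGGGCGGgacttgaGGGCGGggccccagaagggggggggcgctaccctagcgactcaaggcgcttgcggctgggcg
Rarb: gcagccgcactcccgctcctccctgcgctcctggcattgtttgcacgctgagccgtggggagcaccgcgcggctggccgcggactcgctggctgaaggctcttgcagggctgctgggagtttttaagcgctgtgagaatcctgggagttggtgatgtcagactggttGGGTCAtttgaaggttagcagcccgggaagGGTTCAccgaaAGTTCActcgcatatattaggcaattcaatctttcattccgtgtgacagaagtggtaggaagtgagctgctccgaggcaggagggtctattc
The Crabp1 window held 5 GC boxes, 17 CpG dinucleotides and 65.0% GC, against a median of 7 CpG and 52.7% GC over 32851 RefSeq promoter windows, and none of the 4 hexamers on either strand. At least 1 GC box was present in 35.7% of all windows and at least 1 hexamer in 43.7%. The Rarb window held a direct repeat of hexamers with 5 bases between them, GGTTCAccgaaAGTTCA, starting 53 bases before the RefSeq transcript start. Pairs of these hexamers in the same orientation with 5 bases between, searched on both strands, were found in 0.0974% of all windows. Among the windows of the 8 members with an entry, it was found in Rarb only. The same repeat with 1 or 2 bases between was found in none of them, and in 0.222% and 0.268% of all windows. The TATA motif TATAAA was present in a window of Cyp26b1 and of Rbp4 and in 13.6% of all windows. These matches describe letters and not bound sites. No entry was given for Crabp2.

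Levels are FPKM, which divides fragments by transcript length and library depth, so that genes can be compared with each other within a library. The test took in every gene that reached 1 FPKM in 3 or more of the 6 libraries. A gene could thus pass through the libraries of 1 genotype alone, which selects for a difference. Log2 fold changes are knockout minus WT of log2(FPKM + 1), which understates the change of low genes. Crabp1, Crabp2, Rara, Rarg and Aldh1a1 passed this filter, and Rbp4, Stra6, Rarb and Cyp26b1 lay under it in both genotypes and are described by their levels. Of the 5 that passed, 3 were called lower and 0 higher at an adjusted p of 0.05, against 9.2% lower and 10.4% higher among all 12136 genes tested. The knockout libraries did not overlap the WT libraries for 3 of the 5, against 36.7% of the tested genes. Over all 9 members, with those under the filter, this held for 6. Since this comparison was in view when the members were chosen, nothing is read from these counts.

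**Figure D1:**
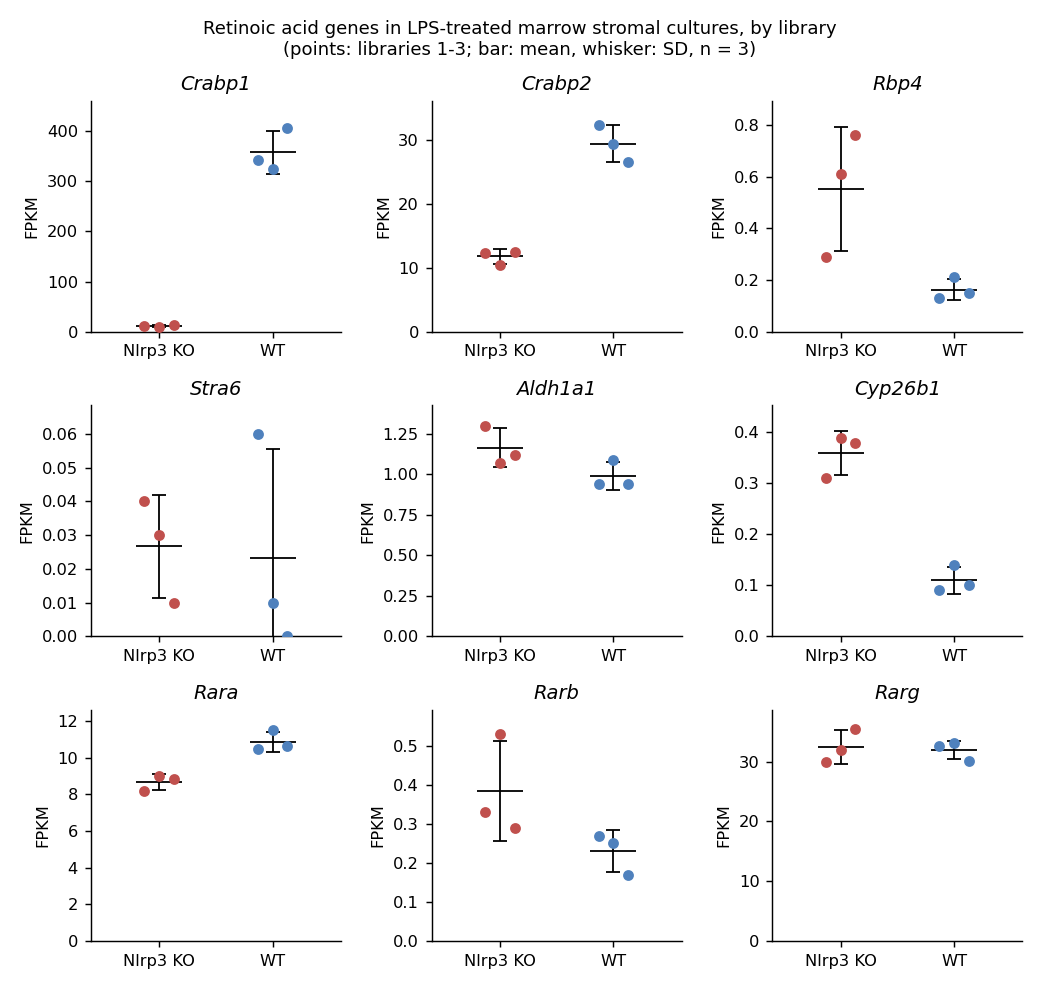
FPKM of each of the 9 genes (y axes, linear, from 0, a scale of its own for each gene) in the 3 Nlrp3 knockout and 3 WT libraries; points are libraries, bars the mean and whiskers the SD. Crabp1, Crabp2 and Rara lie lower in the knockout libraries, Rbp4, Cyp26b1 and Rarb lie higher at levels under 1 FPKM, and Rarg, Aldh1a1 and Stra6 overlap between the genotypes.

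Crabp1 differed most of the 9 genes, both as a ratio of means and on the log2(FPKM + 1) scale. Crabp1 (ENSMUSG00000032291, GRCm38 chromosome 9, 54764748 to 54773110, plus strand) had 12.22, 8.99 and 13.84 FPKM in knockout libraries 1, 2 and 3, against 342.52, 323.86 and 405.63 FPKM in WT libraries 1, 2 and 3. Each knockout library was far below each WT library. The mean was 11.7 ± 2.47 FPKM in knockout and 357.3 ± 42.9 FPKM in WT libraries (SD, n = 3 each), 30.6-fold lower in the knockout group, with a log2 fold change of -4.83 ± 0.16 (SE). Crabp1 was the 117th most abundant of the 55401 genes in the WT group, and the 3865th in the knockout group. In bulk RNA, fewer cells that express a gene and less RNA per cell cannot be told apart. In the same knockout libraries the tested macrophage markers given above were higher. Of 20 tested stromal markers, 10 were lower, 5 were higher and 5 were not called, against 9.2% lower and 10.4% higher among all genes tested. Over all 21 stromal markers on the list the summed level lay between 2548.1 and 2761.5 FPKM in knockout and between 3461.4 and 3798.4 FPKM in WT libraries. The lower stromal markers included Thy1, a surface glycoprotein, at 11.8 ± 1.19 FPKM in knockout and 133.7 ± 6.22 FPKM in WT libraries. The higher ones included Nt5e, the ectoenzyme CD73, at 2.35 ± 0.269 FPKM in knockout and 0.183 ± 0.068 FPKM in WT libraries. Only the knockout libraries of Nt5e reached 1 FPKM, so that it entered the test through the group where it was higher. The part of these markers in the Crabp1 difference was not tested.

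Crabp2 (ENSMUSG00000004885, chromosome 3, 87948666 to 87953376, plus strand), the paralog that delivers retinoic acid to its receptors, had 12.31, 10.48 and 12.53 FPKM in the knockout libraries, against 32.29, 29.26 and 26.55 FPKM in the WT libraries. The groups did not overlap. The mean was 11.8 ± 1.13 FPKM in knockout and 29.4 ± 2.87 FPKM in WT libraries, 2.49-fold lower in the knockout group, with a log2 fold change of -1.25 ± 0.10 (SE). Crabp1 made up 49.5 ± 3.17% of the summed FPKM of the 2 genes in knockout libraries and 92.3 ± 1.34% in WT libraries (n = 3 each). The sum itself was 23.5 ± 3.57 FPKM in the knockout group and 386.7 ± 40.8 FPKM in the WT group.

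Genes of retinol supply were near the limit of detection. Rbp4 (ENSMUSG00000024990, chromosome 19, 38116629 to 38125281, minus strand), the plasma retinol carrier, had 0.29, 0.61 and 0.76 FPKM in the knockout libraries, against 0.13, 0.21 and 0.15 FPKM in the WT libraries. The knockout libraries were all higher, with a mean of 0.553 ± 0.24 FPKM in knockout and 0.163 ± 0.042 FPKM in WT libraries, a ratio of 3.39. These values rest on 150 estimated counts in the knockout group and 45 in the WT group, which is about 37.5 fragments in knockout and 11.2 in WT libraries. Stra6 (ENSMUSG00000032327, chromosome 9, 58063788 to 58153996, plus strand), the RBP4 receptor, had 0.04, 0.03 and 0.01 FPKM in the knockout libraries, against 0.06, 0.01 and 0.00 FPKM in the WT libraries. With 33 estimated counts in the knockout and 26 in the WT group, a difference was not detectable at this depth.

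Synthesis and clearance were represented by low transcripts. Aldh1a1 (ENSMUSG00000053279, chromosome 19, 20492715 to 20643465, plus strand), a retinaldehyde dehydrogenase, had 1.30, 1.07 and 1.12 FPKM in the knockout libraries, against 0.94, 1.09 and 0.94 FPKM in the WT libraries. The groups overlapped, and the log2 fold change was 0.12 ± 0.09 (SE). Its close copy Aldh1a7 stood at 0.047 ± 0.081 FPKM in knockout and 0.143 ± 0.101 FPKM in WT libraries, and reads shared between the copies make both values uncertain. Cyp26b1 (ENSMUSG00000063415, chromosome 6, 84571414 to 84593908, minus strand), which inactivates retinoic acid, had 0.31, 0.39 and 0.38 FPKM in the knockout libraries, against 0.09, 0.14 and 0.10 FPKM in the WT libraries. All knockout libraries were higher, with a mean of 0.360 ± 0.044 FPKM in knockout and 0.110 ± 0.026 FPKM in WT libraries, a ratio of 3.27. These rest on 387 estimated counts in knockout and 121 in WT libraries. On the log2(FPKM + 1) scale the difference was 0.29, and the log2 fold change of the estimated counts was 1.66 in edgeR and in DESeq2.

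The ratios between genotypes were smaller for the receptors than for the binding proteins. Rara (ENSMUSG00000037992, chromosome 11, 98927818 to 98974162, plus strand) had 8.17, 9.01 and 8.84 FPKM in the knockout libraries, against 10.46, 11.52 and 10.63 FPKM in the WT libraries. The groups did not overlap, and the log2 fold change was -0.30 ± 0.07 (SE). This was the smallest of the 3 differences called lower, and it did not pass without knockout library 1 or without any 1 of the WT libraries. Rarg (ENSMUSG00000001288, chromosome 15, 102234938 to 102257517, minus strand), the receptor most abundant in these cultures, had 29.94, 31.94 and 35.51 FPKM in the knockout libraries, against 32.63, 33.06 and 30.17 FPKM in the WT libraries. The groups overlapped, with a log2 fold change of 0.02 ± 0.08 (SE).

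Rarb (ENSMUSG00000017491, chromosome 14, 16430839 to 16575827, minus strand), whose promoter is printed above, had 0.33, 0.53 and 0.29 FPKM in the knockout libraries, against 0.27, 0.25 and 0.17 FPKM in the WT libraries. The knockout libraries lay just above the WT libraries, the lowest of them at 0.29 and the highest WT library at 0.27. Rarb overlaps Top2b, which encodes a DNA topoisomerase, by 4624 bases on the opposite strand, and whether counting used the strand is not given in the sources used here. Top2b had 8.20, 9.66 and 3.93 FPKM in the knockout libraries, against 5.64, 6.56 and 6.29 FPKM in the WT libraries. Knockout library 2 was the highest for both genes. Knockout library 3 was the lowest for Top2b, but lay above every WT library for Rarb. Reads from the shared stretch may count for either gene, which makes the Rarb values uncertain, and their part was not tested.

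Rarg made up 78.1 ± 1.29% of the summed receptor FPKM in knockout libraries and 74.2 ± 0.90% in WT libraries (SD, n = 3 each). The share of Rara was 20.9 ± 1.00% in knockout and 25.3 ± 0.99% in WT libraries, and that of Rarb was 0.929 ± 0.32% in knockout and 0.532 ± 0.106% in WT libraries. The receptor sum was 41.5 ± 3.1 FPKM in knockout and 43.1 ± 1.95 FPKM in WT libraries, and the libraries overlapped. The receptor transcripts thus kept the order Rarg, Rara, Rarb in both genotypes.

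**Figure D2:**
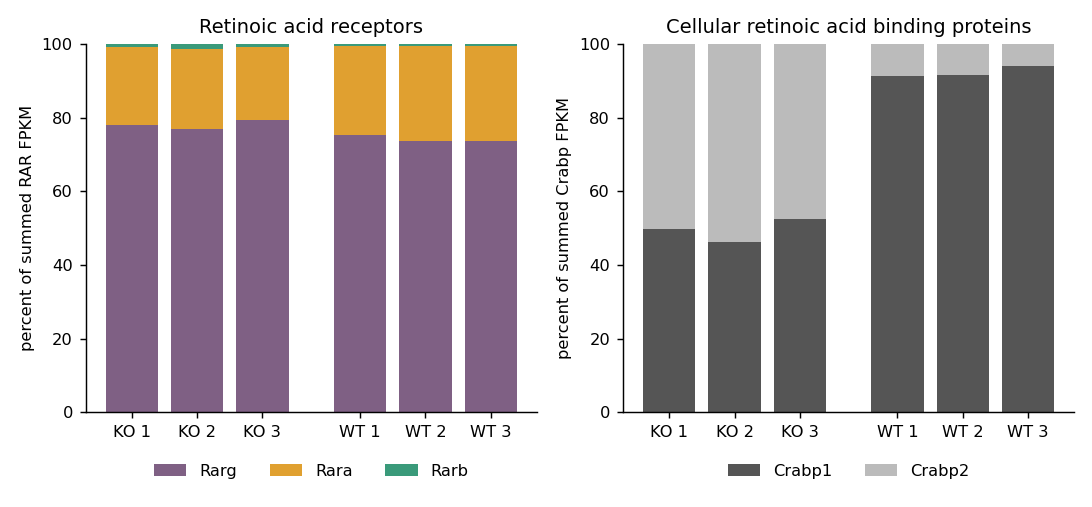
Left, share of each receptor in the summed FPKM of Rarg, Rara and Rarb (percent, y axis) in each knockout and WT library; right, share of Crabp1 and Crabp2 in the summed FPKM of both. Rarg holds between 73.6% and 79.5% of the receptor sum in every library, while Crabp1 holds between 46.2% and 52.5% of the binding protein sum in knockout and between 91.4% and 93.9% in WT libraries.

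The order of the 9 levels differed between genotypes mainly through Crabp1. In knockout libraries the order of the means was Rarg, Crabp2, Crabp1, Rara, Aldh1a1, Rbp4, Rarb, Cyp26b1 and Stra6. Libraries of Crabp2 and Crabp1, of Crabp1 and Rara, of Rbp4 and Rarb and of Rarb and Cyp26b1 overlapped there, so that these neighbours were not separated. In WT libraries the order was Crabp1, Rarg, Crabp2, Rara, Aldh1a1, Rarb, Rbp4, Cyp26b1 and Stra6, and the libraries of Rarg and Crabp2, of Rarb and Rbp4 and of Rbp4 and Cyp26b1 overlapped. The coefficient of variation between libraries was 5.12% in knockout and 5.24% in WT libraries for Rara, and 57.3% in knockout and 137.8% in WT libraries for Stra6.

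The other genes of retinoid handling were then counted in 5 lists with 86 genes, of which 52 passed the filter. In knockout libraries 9 of these passed as higher and 10 as lower, and 33 were not called (limma, Benjamini-Hochberg adjusted p of 0.05 or less). The share called was 36.5%, against 19.6% of all genes tested, and the median log2 fold change was -0.05, against 0.01 over all genes tested. The lists were chosen with earlier results of these data known, so nothing is read from this share or from those of the single lists.

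Among genes of retinoid binding and transport, 1 of 3 tested was higher and 2 were not called. Lrp2, which encodes megalin, an endocytic receptor that takes up RBP4 in the kidney, rose to 1.13 ± 0.116 FPKM in knockout libraries, against 0.247 ± 0.015 FPKM in WT libraries (0.77 ± 0.08, limma adjusted p = 0.00106). Only its knockout libraries reached 1 FPKM, so that it entered the test through the group where it was higher. Fabp5, a fatty acid binding protein that can carry retinoic acid to PPARδ, was among those not called, at 30.0 ± 2.92 FPKM in knockout and 28.0 ± 3.87 FPKM in WT libraries. Ttr, the partner of RBP4 in plasma, was under the filter, and Lrat, the enzyme that stores retinol as esters, was at 0 in all 6 libraries.

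Of 11 tested enzymes that interconvert retinol and retinaldehyde or related compounds, 2 were higher, 2 were lower and 7 were not called. Adh7, an alcohol dehydrogenase with activity on retinol, rose to 6.17 ± 0.538 FPKM in knockout libraries, against 2.74 ± 0.161 FPKM in WT libraries (0.94 ± 0.09, limma adjusted p = 5.28e-04). Dhrs9, a short-chain dehydrogenase with activity on retinol, fell to 0.683 ± 0.040 FPKM in knockout libraries, against 2.24 ± 0.323 FPKM in WT libraries (-0.94 ± 0.10, limma adjusted p = 9.09e-04). Only its WT libraries reached the filter level, so that it entered the test through the group where it was higher. Dhrs3, which reduces retinaldehyde back to retinol and is induced by retinoic acid, stood at 17.4 ± 1.55 FPKM in knockout and 13.9 ± 0.58 FPKM in WT libraries (0.30 ± 0.08, limma adjusted p = 0.0453). Its call was lost in 13 of 15 alternatives, among them each that left out a library; over all 15 the adjusted p lay between 0.0454 and 0.14. Dhrs7, a related dehydrogenase, stood at 7.54 ± 0.278 FPKM in knockout and 9.31 ± 0.151 FPKM in WT libraries (-0.27 ± 0.06, limma adjusted p = 0.0257). It was called in 8 of 15 alternatives, with adjusted p-values between 0.0218 and 0.105. It did not pass without knockout library 1 or 2 or without any 1 of the WT libraries. Rdh10, the main retinol dehydrogenase of the embryo, did not pass, at 4.62 ± 0.150 FPKM in knockout and 3.95 ± 0.191 FPKM in WT libraries (0.18 ± 0.07, limma adjusted p = 0.131).

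Genes under the filter were looked at by level, and those named here were chosen after their values were seen. Aldh1a2, the main retinaldehyde dehydrogenase of embryonic mesoderm, had 0.26, 0.12 and 0.25 FPKM in the knockout libraries and 0.00 FPKM in each WT library. Its 98 estimated counts, 43, 17 and 38 by library, were set against a floor of 12 estimated counts over the 3 WT libraries together. Scaled by total counts, this gave a ratio of 8.05. The floor covers counting error in the WT libraries only, and that of the few knockout counts was left out, so that 8.05 is not a lower bound. Adh1, an alcohol dehydrogenase with activity on retinol, had 0.17, 0.17 and 0.29 FPKM in the knockout libraries, against 1.11, 1.20 and 0.82 FPKM in the WT libraries. None of the 3 other clearance genes, Cyp26a1, Cyp26c1 and Cyp2s1, passed the filter. Together they summed to between 0.08 and 0.16 FPKM in knockout and between 0.07 and 0.24 FPKM in WT libraries.

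Of 19 tested receptor partners and coregulators, 1 was lower and 18 were not called. The share called was 5.26%, against 19.6% of all genes tested, and the median log2 fold change was -0.10, against 0.01. The RXR gene Rxra stood at 10.9 ± 0.99 FPKM in knockout and 12.6 ± 0.14 FPKM in WT libraries (-0.20 ± 0.08), and Rxrb at 7.10 ± 0.79 FPKM in knockout and 8.42 ± 1.24 FPKM in WT libraries (-0.21 ± 0.12), and neither passed. The lower gene was Calcoco1, a coactivator of nuclear receptors and an autophagy receptor, at 11.5 ± 0.65 FPKM in knockout and 14.0 ± 0.36 FPKM in WT libraries (-0.27 ± 0.07, limma adjusted p = 0.0326). It did not pass without knockout library 1 or 2 or without any 1 of the WT libraries, and over all 15 alternatives its adjusted p lay between 0.018 and 0.125.

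**Figure D3:**
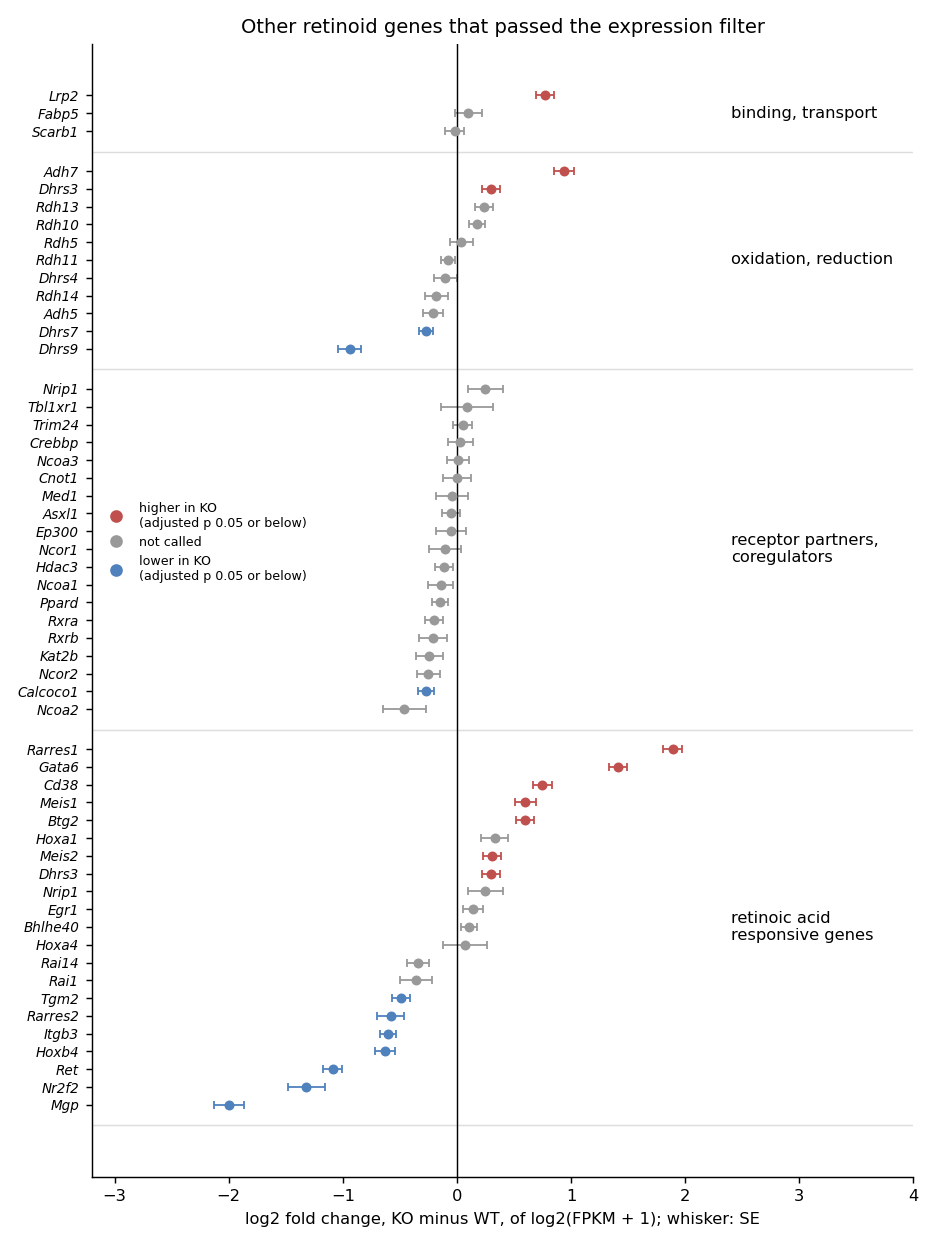
Log2 fold change, knockout minus WT, of log2(FPKM + 1) with its SE (x axis) for the retinoid genes besides the 9 that passed the expression filter (y axis), by list; colour marks the limma call, and a gene on more than 1 list is drawn in each. Adh7, at 0.94, and Dhrs9, at -0.94, lie farthest from 0 among the enzymes, 18 of 19 receptor partners and coregulators were not called, and the responsive genes lie on both sides of 0.

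Genes known to respond to retinoic acid in other settings moved in both directions. Of 21 tested, 7 were higher, 7 were lower and 7 were not called. The share called was 66.7%, against 19.6% of all genes tested, and the median log2 fold change was 0.11. Rarres1, Gata6 and Meis1 passed the filter through the knockout libraries alone, and Ret and Rarres2 through the WT libraries alone. Each thus entered the test through the group where it was higher, and nothing is read from the share. Rarres1, named for its induction by retinoids in skin, had 3.51, 3.54 and 3.89 FPKM in the knockout libraries, against 0.25, 0.25 and 0.27 FPKM in the WT libraries (1.89 ± 0.08, limma adjusted p = 2.40e-05). The transcription factor Gata6 had 1.80, 1.84 and 1.89 FPKM in the knockout libraries, against 0.05, 0.07 and 0.10 FPKM in the WT libraries (1.41 ± 0.08, limma adjusted p = 6.13e-05). The knockout and WT libraries of both genes were widely separated. Cd38, an NAD-consuming surface enzyme that retinoic acid induces in leukaemia cells, rose to 4.37 ± 0.318 FPKM in knockout libraries, against 2.19 ± 0.182 FPKM in WT libraries (0.75 ± 0.08, limma adjusted p = 0.00128). Btg2, an antiproliferative gene, rose to 25.5 ± 1.94 FPKM, against 16.4 ± 0.80 FPKM in WT libraries (0.60 ± 0.08, limma adjusted p = 0.00224).

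On the lower side stood Mgp, which encodes an inhibitor of mineralization, with 35.66, 30.75 and 43.51 FPKM in the knockout libraries, against 146.73, 138.03 and 160.51 FPKM in the WT libraries (-2.00 ± 0.13, limma adjusted p = 1.46e-04). Nr2f2, which encodes the nuclear receptor COUP-TFII, had 2.10, 2.30 and 1.43 FPKM in the knockout libraries, against 5.46, 7.62 and 5.99 FPKM in the WT libraries (-1.32 ± 0.16, limma adjusted p = 0.00159). Ret, a receptor tyrosine kinase for GDNF family ligands, had 0.08, 0.10 and 0.05 FPKM in the knockout libraries, against 1.27, 1.43 and 1.20 FPKM in the WT libraries (-1.09 ± 0.08, limma adjusted p = 2.60e-04). Hoxb4, a homeobox transcription factor, had 1.66, 1.92 and 1.79 FPKM in the knockout libraries, against 3.07, 3.70 and 3.16 FPKM in the WT libraries (-0.63 ± 0.09, limma adjusted p = 0.00369). The libraries of the genotypes did not overlap for any of these 4 genes. The remaining calls were Meis1, Meis2 and Dhrs3 on the higher side and Tgm2, Rarres2 and Itgb3 on the lower side. Among known direct targets of the receptors, Cyp26a1 stood at 0.047 ± 0.045 FPKM in knockout and 0.010 ± 0.017 FPKM in WT libraries, and Stra8 and Hoxb1 were at 0 in all 6. The list holds genes of several cell types. In the same knockout libraries 28 of 28 tested macrophage markers were higher, and of 20 tested stromal markers 10 were lower and 5 higher. The shares over all genes tested were 10.4% higher and 9.2% lower. The part of these markers in the calls of responsive genes was not tested.

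The genome around the members was compared next. For each member the nearest tested gene on either side was taken, leaving out genes that overlap the member, such as Top2b. This gave 18 genes, of which 4 were higher, 1 was lower and 13 were not called. Among all genes tested, 10.4% were higher and 9.2% lower. The neighbours of Crabp1 were Wdr61, 30.2 kb to its left, at 7.71 ± 1.20 FPKM in knockout and 8.22 ± 1.46 FPKM in WT libraries, and the pseudogene Rab7-ps1, 51.6 kb to its right, at 9.79 ± 0.54 FPKM in knockout and 9.63 ± 0.88 FPKM in WT libraries. Reads of Rab7-ps1 may be shared with its parent gene, which makes its value uncertain. Neither passed (log2 fold changes -0.08 ± 0.15 and 0.02 ± 0.09). Within 1000 kb of the Crabp1 start 11 other genes were tested, of which 1, Idh3a, a subunit of a mitochondrial isocitrate dehydrogenase, was higher (0.36 ± 0.06, limma adjusted p = 0.00777) and 0 were lower. The neighbours of Rbp4, Cep55 and Fra10ac1, and those of Aldh1a1, Anxa1 and Zfand5, did not pass. Beside Stra6, Sema7a, a membrane-anchored semaphorin, was higher (1.22 ± 0.08, limma adjusted p = 1.12e-04) and Islr, an immunoglobulin-domain protein of stromal cells 2.27 kb away, was lower (-0.70 ± 0.11, limma adjusted p = 0.00559). Stra6 itself was near 0 in both genotypes.

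**Figure D4:**
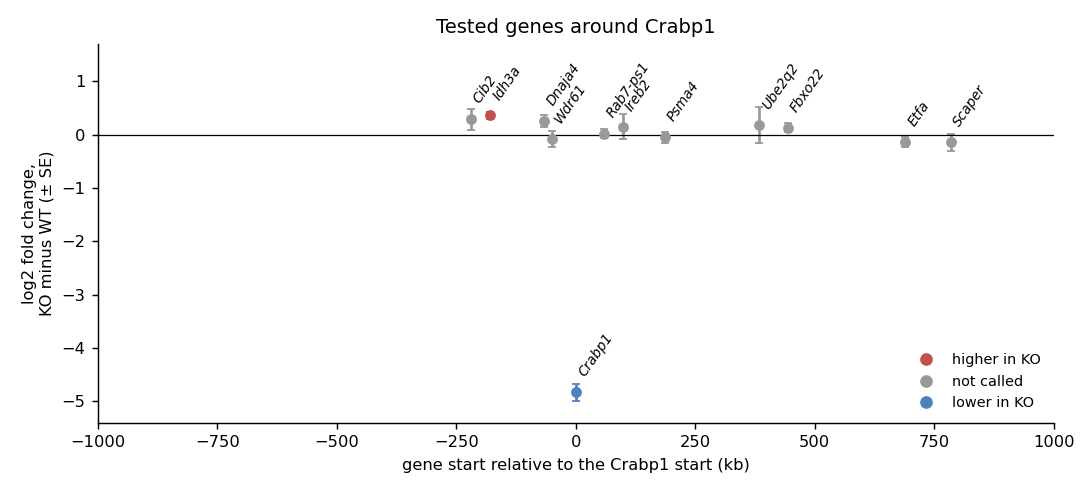
Log2 fold change, knockout minus WT, with its SE (y axis) of the tested genes within 1000 kb of Crabp1, by the distance of their start from the Crabp1 start (x axis, kb). Crabp1 lies at -4.83, while the other 11 genes lie between -0.14 and 0.36.

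Hdac5, Rab3il1 and Il11ra1 were among the 4 tested genes whose log2(FPKM + 1) followed Crabp1 most closely over the 6 libraries, with Pearson r of 0.9999, 0.9995 and 0.9994. Crabp2 had an r of 0.99 and Rara of 0.92. With 2 groups of 3 libraries these values mostly restate the difference between the genotypes, and 693 tested genes had an r of 0.95 or more. Hdac5, a class II histone deacetylase, stood at 5.58 ± 0.215 FPKM in knockout and 10.5 ± 0.305 FPKM in WT libraries. Il11ra1, the interleukin-11 receptor, stood at 3.02 ± 0.306 FPKM in knockout and 11.3 ± 0.293 FPKM in WT libraries. Rab3il1, an exchange factor for Rab GTPases, stood at 0.837 ± 0.085 FPKM in knockout and 2.81 ± 0.084 FPKM in WT libraries. Only its WT libraries reached 1 FPKM, so that it was among the tested genes through the group where it was higher.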

How the data were processed

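Polyadenylated RNA was sequenced as pairs of 150 bases. The submitters' processing notes name GRCm38 and the tools cutadapt (1.9), HISAT2 (2.0.4) and StringTie (1.3.4d), without their order. How counts were made, the annotation release, strand use and filters are not given in the sources at hand. The authors deposited FPKM values to 2 decimals and estimated counts (expected counts) per gene. The deposited counts are whole numbers but behave as estimates: over 5837 genes with at least 5 FPKM and 300 counts, 100.0% of the values kept, to within 1%, the same scale between counts and FPKM for each library relative to the first, and 44.4% of counts up to 16 were multiples of 4. About 4 counts are thus taken to equal 1 fragment, an inference from the values. Libraries correspond to about 13.3 to 16.6 M fragments. The floor used for Aldh1a2 covers counting error in the WT libraries only.

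Genes with at least 1 FPKM in at least 3 libraries (12136) entered a linear model of genotype on log2(FPKM + 1) in limma 3.58.1 (R 4.3.3), with an intensity trend in eBayes. Its p-values are two-sided and were adjusted by Benjamini and Hochberg's method over these genes, with 0.05 as the limit. Rounded estimated counts were tested with edgeR 4.0.16 (quasi-likelihood) and DESeq2 1.42.0 as alternatives, and the fits were tested on simulated data. The members and lists were chosen with earlier results of these data known. Genes named are the 9 members, Nlrp3, up to 4 called genes per direction and retinoid list, the neighbours of Crabp1, Rbp4, Aldh1a1 and Stra6, genes among the 4 most like Crabp1 and leading cell type markers; Thy1, Nt5e, Top2b, Aldh1a7, Fabp5, Ttr, Lrat, Rdh10, Aldh1a2, Adh1, the other clearance genes, Rxra, Rxrb, the remaining calls among responsive genes, Cyp26a1, Stra8, Hoxb1 and Idh3a were added after their values were seen, as was the window of 1000 kb. The titles number the libraries of each genotype as days 1 to 3, while another label gives day 1 for all, so that the number was used only to name libraries and, in an alternative, as a block. A few genes are not reported here and were left out of the lists and their counts.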

Additional observations from a re-analysis of the deposited data

How the results depend on the processing

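Alternatives were a pseudocount of 0.1, no filter, a filter on a mean of 2 FPKM, rescaling by TMM or size factors, edgeR with and without its filter, DESeq2, the replicate number as a block, and leaving out each library in turn, with the tested genes kept. The members were selected on this comparison, so their calls describe the settings and are no independent support. Crabp1 and Crabp2 were called lower in all 16 settings, the main one included, and Rara in 11 of 16. Where it could be fitted, Cyp26b1, under the main filter, was called higher in 4 of 4 settings, so that the number of members called higher became 1 without a filter and in edgeR with or without its filter, and 2 in DESeq2, where Rbp4 was called as well. Rarb and Stra6 were called in none of 4 settings. Of retinoid oxidation and reduction genes, 1 was called higher under TMM rescaling, under size factors and with the replicate block, and 1 with any library left out. In the same list 1 was called lower under the stricter filter and with the replicate block, and 1 to 2 with a library left out. Of binding and transport genes, 0 were called higher under the stricter filter, which removes Lrp2. Of coregulators, 0 were called lower in edgeR without a filter and with the replicate block, and 0 to 1 with a library left out. Of responsive genes, 3 were called higher under the stricter filter and 5 to 6 with a library left out. Over all genes, 868 to 1685 were called higher and 721 to 1314 lower with a library left out, with 721 lower without WT library 1. The cause was not tested. Deviations of same-numbered libraries from their group means correlated at 0.02, 0.17 and 0.1, and not every library correlated best with its own number, so that the pairing was not used. With a library left out, the r of Hdac5 with Crabp1 lay between 0.9998 and 1.0000, of Rab3il1 between 0.9994 and 0.9998 and of Il11ra1 between 0.9992 and 0.9998. No called result changed direction. Rarg, not called, had a log2 fold change of -0.04 without knockout library 3 and -0.02 without WT library 3, against 0.02 with all libraries. For Stra6, under the filter, the knockout mean of 0.0267 FPKM lay below the WT mean of 0.03 FPKM without WT library 2 and 0.035 FPKM without WT library 3. Depth limits Stra6, Rbp4 and the clearance genes, which rest on few fragments.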
